A study of Homo sapiens with 14 samples.

Results

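Splicing of the genes for mitochondrial ribosomal proteins (MRP genes) was compared between HEK293T cells with normal and with mutant SF3B1. The members were the splice events in the deposited event table whose gene symbol began with MRPL (large subunit) or MRPS (small subunit) followed by a digit. The table held 428 such events in 70 genes among 114349 events in all. A minimum of 10 junction reads per event, averaged over the genotypes, left 377 MRP events in 69 genes and removed 51. Of the 94061 events of all genes past this minimum, 83581 varied and had a level in every library, and 358 of these were MRP events, 233 in 43 MRPL genes and 125 in 26 MRPS genes. The other 19 MRP events past the minimum had the same level in all 6 libraries, 18 at full inclusion and 1 at none. MRPS16 had no event past the minimum.

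The study asked how the SF3B1 hot spot mutation K700E leads to RNA:DNA hybrids and genome instability through altered splicing. HEK293T is a human embryonic kidney line, and the lines compared here were isogenic, with genotype SF3B1 K700K (WT) or SF3B1 K700E (MT), the mutation being placed at the endogenous locus. No drug or other treatment is named for either genotype in the labels. RNA-Seq libraries of total RNA were labelled as 3 WT and 3 MT replicates. Whether replicates came from separate cultures or clones is not given in the sources used here, so the spread between them may be technical, and a line that is 1 clone carries its own differences as well as the mutation. The table listed 6 MT values for each event but gave columns to 3 of them, and only these 3 were used. Which labelled MT libraries they are is not settled, and they are called MT1 to MT3 after their columns. Inclusion levels carry no gene expression, so the kidney origin of the cells could not be checked.

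The mitochondrial ribosome translates the few proteins that mitochondrial DNA encodes, all of them parts of the oxidative phosphorylation machinery. Its RNAs come from the mitochondrial genome, whereas all of its proteins are encoded in the nucleus, so their transcripts pass through the nuclear spliceosome. SF3B1 is part of the U2 snRNP, which binds the branch point upstream of the 3′ splice site, and hot spot mutants are known for the use of cryptic 3′ splice sites a short way upstream of the normal one. The measurement here was the inclusion level, the share of transcripts with the longer form (the skipped exon, the extended exon or the retained intron) after correction for the length of each form, from 0 to 1. For pairs labelled as mutually exclusive exons it is the share of 1 exon of the pair.

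Alternative 3′ splice sites of MRP genes are shown first, because this is the class of event tied to mutant SF3B1. The reference genome (GRCh38) carried AG at all 41 distinct alternative 3′ sites and GT at all 45 distinct alternative 5′ sites of the tested MRP events. Among 23 tested pairs of 3′ sites, 5 lay 10 to 30 bp apart, in MRPL22, MRPL39, MRPL58, MRPS18B and MRPS34. Pairs 3 bp apart, in MRPL42, MRPL55 and MRPS22, are shown beside them as tandem sites at which the spliceosome chooses between neighbouring AGs. Both sets were picked by distance after values had been seen. Lines give the gene strand 5′ to 3′ with the competing AGs in capitals. Use of the upstream AG gives the longer exon.
MRPL22, chr5:154950791-154950820, plus strand, 18 bp apart: gttgttttatAGgcttctttcatttcacAG
MRPS34, chr16:1772514-1772543, minus strand, 21 bp apart: tgtgtgcAGacgcctctttttcttcatcAG
MRPL58, chr17:75020458-75020487, plus strand, 21 bp apart: ggactccAGtttttcatttgttctctgcAG
MRPS18B, chr6:30619679-30619708, plus strand, 28 bp apart: AGgaataacttgtatgatctttcatttcAG
MRPS22, chr3:139346851-139346880, plus strand, 3 bp apart: cttcttatttactaaagtccattttAGcAG
MRPL42, chr12:93469162-93469191, plus strand, 3 bp apart: agcactgatttttctttatctcttcAGcAG
MRPL55, chr1:228108319-228108348, minus strand, 3 bp apart: aaaaagatctcttcattctctgcctAGcAG
For MRPL39 on chromosome 21 the sites lie 30 bp apart, so each is given alone.
MRPL39 upstream site, chr21:25599867-25599886, minus strand: tattttggttggatttacAG
MRPL39 downstream site, chr21:25599837-25599856, minus strand: tgccttctgttatgacgtAG

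No MRP event was called different between genotypes. The call rule was an adjusted p under 0.05 (limma on arcsine-transformed levels, Benjamini-Hochberg over all 83581 events) with a difference in mean level above 0.1. It was met by 26 events of all genes (0.0311%), 11 higher in MT (0.0132%) and 15 lower (0.0179%), and by 0 of 358 MRP events. The smallest adjusted p of an MRP event was 0.595. A quasi-binomial test on the junction reads gave 26 calls among 79601 events (0.0327%) and 0 among 353 MRP events. With the unadjusted limma p under 0.05, 14 MRP events passed (3.91%, 7 in each direction), against 4.47% of all events, 1.53% higher in MT and 2.94% lower. The quasi-binomial test put 24 MRP events (6.8%) under an unadjusted p of 0.05, against 6.02% of all events.

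Every MT library lay above or below every WT library in 11 MRP events (3.07%), against 5.46% of all events tested. MT was higher in 8 of them (2.23%, all events 2.32%) and lower in 3 (0.838%, all events 3.15%). None of the 11 had a difference above 0.1, a combination met by 1443 events of all genes (1.73%, 0.749% higher and 0.977% lower in MT). The MRP shares were near or under the background in each of these counts, and no difference between the shares was tested.

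Differences in MRP genes were small in absolute terms. The median absolute difference was 0.0073 over MRP events and 0.0137 over all events, and the 90th percentiles were 0.0453 and 0.0737. The largest rise was 0.205 and the largest fall 0.166, whereas events of other genes reached 0.633 and fell by up to 0.665. These extremes come from 358 and 83581 events, and a larger set can reach further. A difference of at most 0.2 was found in 99.72% of MRP events and in 98.96% of all events. A 95% interval of the difference (limma on the untransformed level) lay wholly between −0.1 and 0.1 in 293 MRP events (81.8%), against 62.3% of all events. For these events a change above 0.1 lay outside the interval. The remaining intervals reached past −0.1 or 0.1, so a change of that size lay within them.

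**Figure D1:**
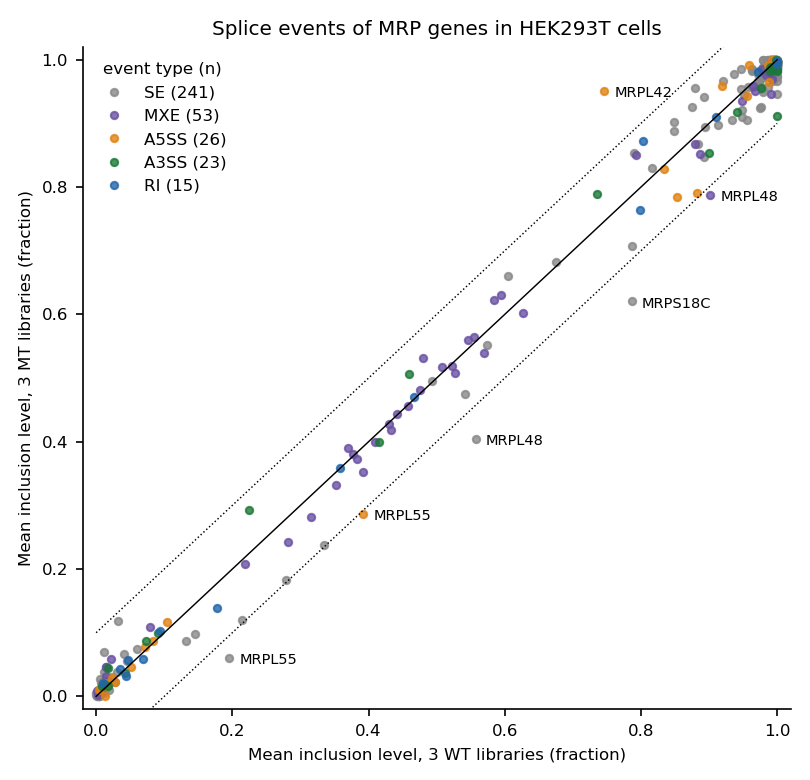
Mean inclusion level of the 358 tested MRP events in 3 WT (x axis) and 3 MT libraries (y axis), as fractions and coloured by event type (SE skipped exon, MXE mutually exclusive exons, A5SS and A3SS alternative 5′ and 3′ sites, RI retained intron). The solid line is equality and the dotted lines a difference of 0.1, beyond which lie the 6 named points.

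MRP events were also deeper and nearer the ends of the scale. They had a median of 158.6 junction reads, against 82.4 for all events, and a narrower median half-width of the interval (0.025 against 0.0501). Most MRP events also sat near the ends of the scale, with 217 at a mean level of 0.9 or above, 76 at 0.1 or below and 65 (18.2%) between, against 27.1% of all events between. Within this middle range, 6 MRP events (9.23%) differed by more than 0.1, against 18.1% of all events, and 0 were also without overlap, against 5.4%. MRP events were deeper in this range too, with a median of 123.1 reads against 66.2 and a median half-width of 0.1175 against 0.1422. Middle-level events were found in 29 of 69 MRP genes, led by MRPL55 with 15, MRPL48 with 8 and MRPS15 with 5. Events of 1 gene share junction reads and are not independent.

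**Figure D2:**
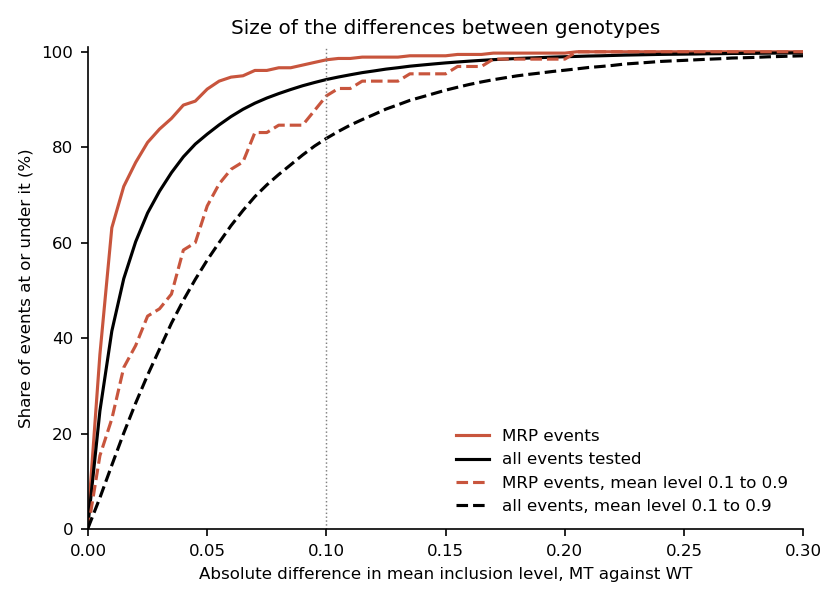
Cumulative share of events (%) by the absolute difference in mean inclusion level between MT and WT, for MRP events (red) and all tested events (black), over all levels (solid) and over mean levels from 0.1 to 0.9 (dashed). At the dotted line of 0.1, 1.68% of MRP events and 5.81% of all events are still to come, and from 0.005 up to it the MRP curve lies above that of all events in both classes.

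Median junction reads per MRP event ran from 143 to 177 in the WT libraries and from 121 to 152 in the MT libraries. MT3 was the library farthest from the median of the 6 in 24.8% of 331 MRP events and WT1 in 9.06%, and MT3 also led over all events with 21%. The part of this spread in the differences below was not tested.

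MRPL48, a large subunit protein found in mitochondrial but not bacterial ribosomes, had 32 tested events, the most of any MRP gene. Its 103-bp exon (chr11:73859907-73860009, coding in 4 annotated transcripts) gave the smallest p of all MRP events. The level was 1 in each WT library and 0.967, 0.962 and 0.989 in MT1, MT2 and MT3, so the groups did not overlap. The difference was −0.027 (95% interval −0.0477 to −0.007), with unadjusted p 0.00191 and adjusted p 0.595 by limma. Exclusion was carried by 2, 3 and 1 reads in the MT libraries and by 0 reads in each WT library, beside 116 to 203 inclusion reads.

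A second event on the same exon, with another neighbouring exon, had a level of 1 in all WT libraries and 1, 0.944 and 0.896 in MT1 to MT3. The preceding 170-bp exon of MRPL48 had 1 in all WT libraries and 1, 0.968 and 0.934 in MT. Both events carried the same exclusion counts, 0, 2 and 4 reads in the MT libraries, and MT1 had the WT level in both. The unadjusted limma p was 0.0212 and 0.0274, and the adjusted p was 0.856 for both.

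Measured against each other, these exons of MRPL48 gave a level of the 170-bp exon of 0.574, 0.576 and 0.601 in WT against 0.604, 0.644 and 0.621 in MT. MT was higher in every library, by 0.039 (interval 0.0064 to 0.0722), while the adjusted limma p was 0.856. On arcsine-transformed levels the unadjusted limma p was not under 0.05 for this event. It was under 0.05 in 0 of the 53 tested exon pairs, against 4.47% of all events. With so few pairs that share is uncertain, and its difference from the background was not tested. The MRPL48 pair is labelled mutually exclusive, yet 7 annotated transcripts hold both exons and 2 hold 1 of them. Its level thus compares reads of neighbouring exons. The 89-bp exon upstream in the gene was likewise set against a neighbour, with levels of 0.989, 0.99 and 1 in WT against 0.975, 0.971 and 0.961 in MT. Here MT was lower in every library, with 2, 3 and 5 reads of the alternative exon against 1, 1 and 0 in WT. For MRPL48 as a whole, events that separated the genotypes did so through counts of 0 to 5 reads or through a shift of a few percent.

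MRPL47, a large subunit protein with a bacterial homologue, moved the other way at an internal exon on chromosome 3. The 146-bp form of the exon (chr3:179602652-179602797) had levels of 0.923, 0.931 and 0.958 in WT against 0.988, 0.986 and 0.96 in MT. Every MT library was above every WT library, though WT3 and MT3 differed by little. The difference was 0.041 (interval 0.009 to 0.0723), with an adjusted limma p of 0.856. An 86-bp form of the exon, with the same 5′ splice site and the same exclusion reads (8, 8 and 4 in WT, 1, 1 and 3 in MT), gave 0.84, 0.88 and 0.918 against 0.978, 0.972 and 0.916. The groups overlapped there, since MT3 lay just under WT3.

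MRPL58, also named ICT1, is a peptidyl-tRNA hydrolase built into the large subunit that frees stalled ribosomes. A rarely used 109-bp exon (chr17:75018586-75018694) had levels of 0.006, 0.004 and 0.006 in WT against 0.02, 0.026 and 0.035 in MT. All MT libraries were above WT, by 0.022 (interval 0.0037 to 0.0397). That interval is on untransformed levels. On arcsine-transformed levels the smallest unadjusted limma p of any MRPL58 event was 0.123. Inclusion reads were 1 in each WT library and 2, 5 and 8 in MT, and the adjusted p was 0.856 by limma and 0.591 by the quasi-binomial test. The form stayed a minor one in both genotypes.

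MRPL9, a large subunit protein with a bacterial homologue, had a similar rare exon of 49 bp (chr1:151761962-151762010). Its levels were 0.002, 0 and 0.005 in WT against 0.011, 0.012 and 0.008 in MT, on 0 to 2 and 3 to 4 inclusion reads. The groups did not overlap, and the interval of the difference ran from −5e-04 to 0.0165. At MRPL38, a mitochondria-specific large subunit protein, use of a 5′ site that lengthens the exon by 314 bp was 0.012, 0.011 and 0.014 in WT against 0.033, 0.015 and 0.015 in MT. The groups were separated by 0.001, with a difference of 0.0087 (interval −0.0086 to 0.0259).

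The pair of 5′ sites in MRPL38 is shown with the GT of each in capitals, as 6 exon and 8 intron bases, because the rarely used site is the one that was higher in MT. The downstream site gives the longer exon.
MRPL38 upstream site, chr17:75904532-75904545, minus strand: agacagGTgcgggg
MRPL38 downstream site, chr17:75904218-75904231, minus strand: tactctGTaggtaa
The corresponding sites of MRPL42 and MRPL43, for the events described next, were as follows.
MRPL42 upstream site, chr12:93470500-93470513, plus strand: gtgcagGTttgtta
MRPL42 downstream site, chr12:93470585-93470598, plus strand: caatagGTagtttt
MRPL43 upstream site, chr10:100986741-100986754, minus strand: gcccagGTgcaagc
MRPL43 downstream site, chr10:100986679-100986692, minus strand: actccgGTaaaggt

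MRPL42, a mitochondria-specific large subunit protein, held the largest rise. Its longer exon, made by the downstream 5′ site 85 bp away, had levels of 0.909, 0.466 and 0.863 in WT against 0.852, 1 and 1 in MT. Groups overlapped, and WT2 alone was low, on 5 inclusion and 3 exclusion reads. The difference was 0.205, but the event averaged 16 reads and the interval ran from −0.126 to 0.536. Leaving out 1 library at a time moved the difference from 0.0647 to 0.286. MRPL43, also specific to mitochondrial ribosomes, had 0.975, 0.923 and 0.979 in WT against 1, 0.977 and 1 in MT at a 5′ site pair 62 bp apart. MT2 lay between WT1 and WT3, so the groups overlapped, and the interval ran from −0.0113 to 0.078. Another event at the same pair of sites, with 123 reads on average, went the other way, with 0.952, 0.935 and 0.979 in WT against 0.956, 0.884 and 0.99 in MT.

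Lower levels in MT were found at exons of MRPL49 and MRPL3 without separation of the groups. A 151-bp exon of MRPL49 (chr11:65124502-65124652) had 1, 0.982 and 1 in WT against 0.966, 0.991 and 0.943 in MT, a difference of −0.027. MRPL3, a core large subunit protein near the peptidyl transferase centre, had 0.994, 0.988 and 1 in WT against 0.985, 0.934 and 0.995 in MT at a 99-bp exon. MT2 alone was low for MRPL3, with 17 exclusion reads against 0 to 5 in the other libraries, and without it the difference was −0.004. Another event on this MRPL3 exon, with another neighbouring exon and 386 reads on average, did not have the fall in MT2. Its levels were 1 in each WT library and 1, 1 and 0.993 in MT. Adjusted limma p was 0.856 for the MRPL49 event and for both MRPL3 events.

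**Figure D3:**
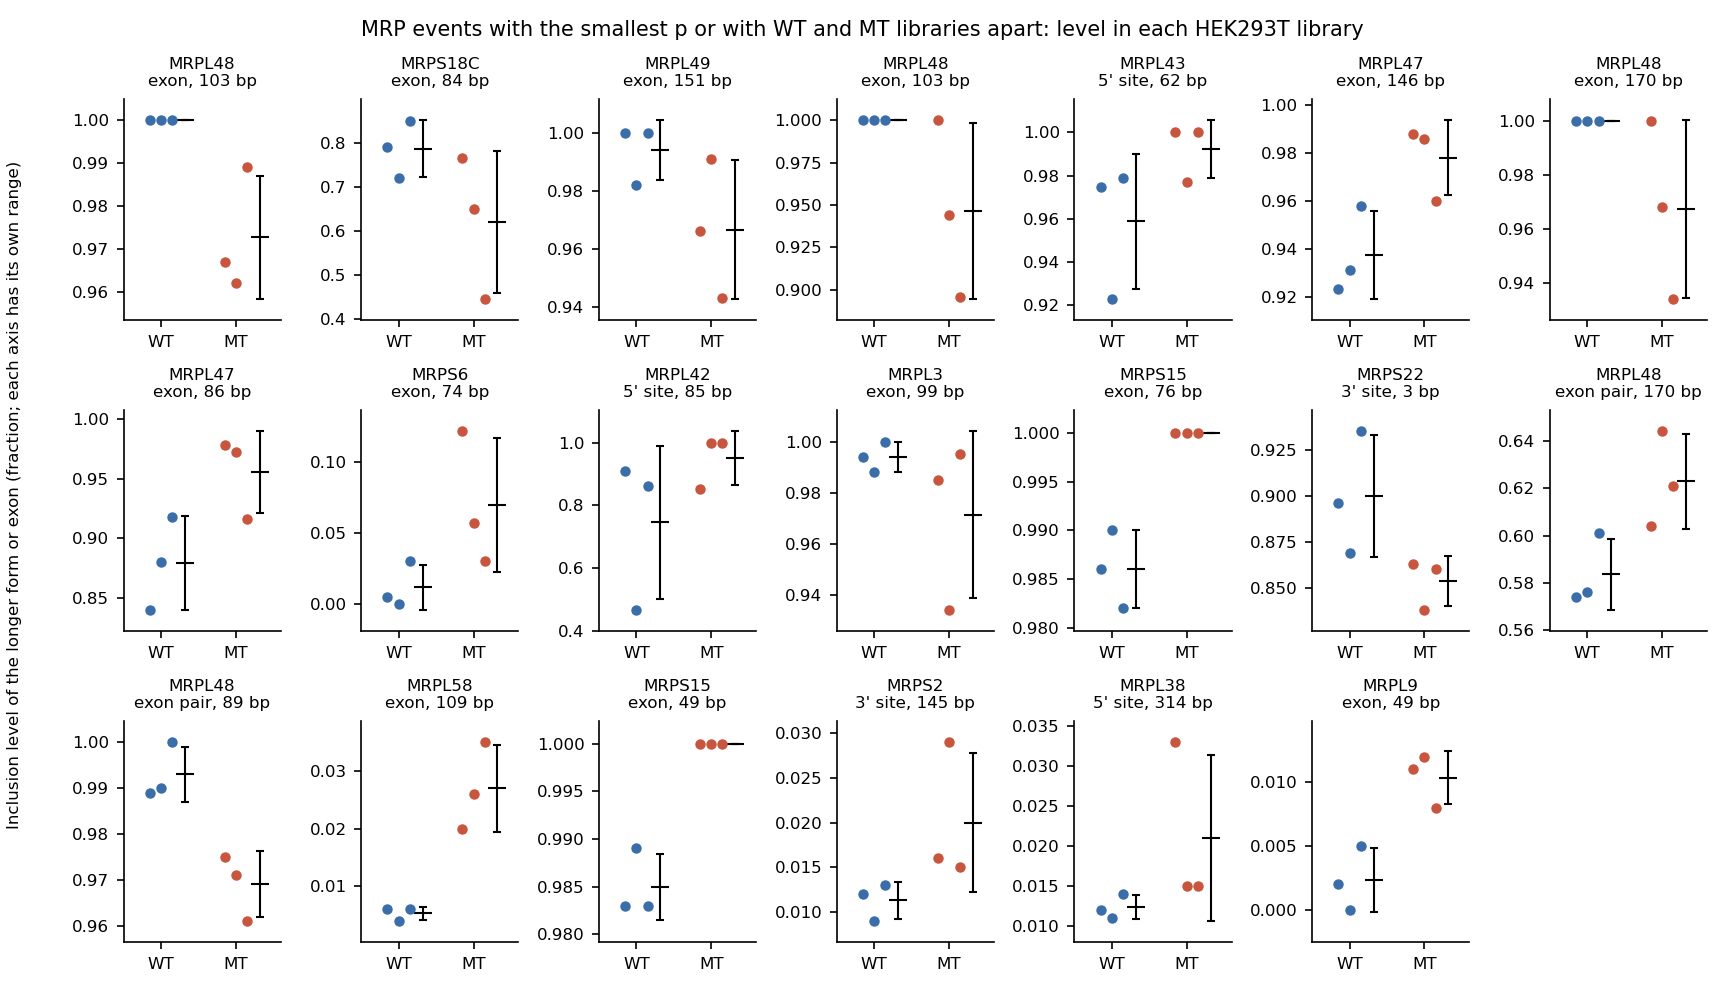
Inclusion level (fraction, each panel with its own y range) in each WT (blue) and MT (red) library, with the mean ± SD of 3 libraries in black, for the MRP events with the smallest p or with the largest difference among events without overlap. Panels give the gene and the length of the exon or segment, and most shifts are a few percent at levels near 0 or 1.

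MRPS18C was the small subunit gene with the largest difference. Mammals have several MRPS18 paralogues, of which MRPS18C is a small subunit protein and MRPS18A belongs to the large subunit. The 84-bp exon (chr4:83458346-83458429, in frame and coding in 2 of 9 annotated transcripts) had levels of 0.79, 0.72 and 0.849 in WT against 0.765, 0.65 and 0.446 in MT. MT1 lay within the WT range, MT2 below it and MT3 far below it. Means were 0.786 ± 0.0646 in WT against 0.62 ± 0.162 in MT (SD, n = 3), a difference of −0.166 with an interval from −0.386 to 0.0542. The adjusted limma p was 0.843. Exclusion reads were 14, 34 and 13 beside 100, 166 and 139 inclusion reads in WT, and 25, 32 and 45 beside 155, 113 and 69 in MT. Without MT3 the fall was −0.0788 and without MT1 −0.238, so MT3 decided much of its size.

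MRPS22, a mitochondria-specific small subunit protein whose loss causes oxidative phosphorylation deficiency, had the tandem 3′ sites shown above, where the upstream AG adds 3 in-frame bases. The longer form had levels of 0.896, 0.869 and 0.935 in WT against 0.863, 0.838 and 0.86 in MT. All MT libraries were below all WT libraries, by −0.046 (interval −0.0928 to 1e-04), on 157 reads on average. The adjusted limma p was 0.856. Another event at these AGs, with 10.2 reads on average, had 0.746, 0.662 and 0.797 in WT against 1, 0.873 and 0.495 in MT, a difference of 0.0543 in the other direction (interval −0.297 to 0.405). At the tandem sites of MRPL42, equally spaced, the longer form had 0.42, 0.376 and 0.448 in WT against 0.366, 0.43 and 0.401 in MT, with overlap. At those of MRPL55, the values were 0.197, 0.271 and 0.205 against 0.262, 0.37 and 0.246, again with overlap and on 24 reads. The tandem pairs thus had no common direction, and none passed the test.

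The 3′ site pairs 10 to 30 bp apart differed by −0.0093 to 0.0277 (median 0.0083). The upstream site was higher in MT in 4 of 5 pairs, each pair with overlapping groups. It was higher in 3 of 8 events under 10 bp apart and in 2 of 10 events over 30 bp apart. Over all 23 events it was higher in 9 and lower in 14. No difference between the distance classes was tested. For MRPL22 the levels were 0.008, 0.036 and 0.007 in WT against 0.031, 0.056 and 0.047 in MT, with WT2 above MT1. For MRPS34, a small subunit protein, they were 0.075, 0.057 and 0.088 against 0.104, 0.077 and 0.08. For MRPL58 they were 0.071, 0.074 and 0.128 against 0.089, 0.068 and 0.141. Apart from MRPL39, the upstream site of these pairs was the minor one in both genotypes.

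MRPS18B had 0.009, 0.012 and 0.004 in WT against 0.004, 0.03 and 0.015 in MT, and MRPL39 ran the other way with 1, 1 and 0.989 against 0.988, 0.973 and 1. Pairs under 10 bp apart (8 events) had a median difference of −0.0026 and pairs over 30 bp apart (10 events) one of −0.0113. Of all 23 alternative 3′ site events of MRP genes, 0 had an unadjusted limma p under 0.05, against 334 of 5351 such events of all genes (6.24%). The groups did not overlap in 2 of the 23 (8.7%), 1 higher and 1 lower in MT. Over tested events of all types this share was 5.46%, and it was not taken for alternative 3′ sites alone. With so few events these shares are uncertain, and their difference from the background was not tested.

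**Figure D4:**
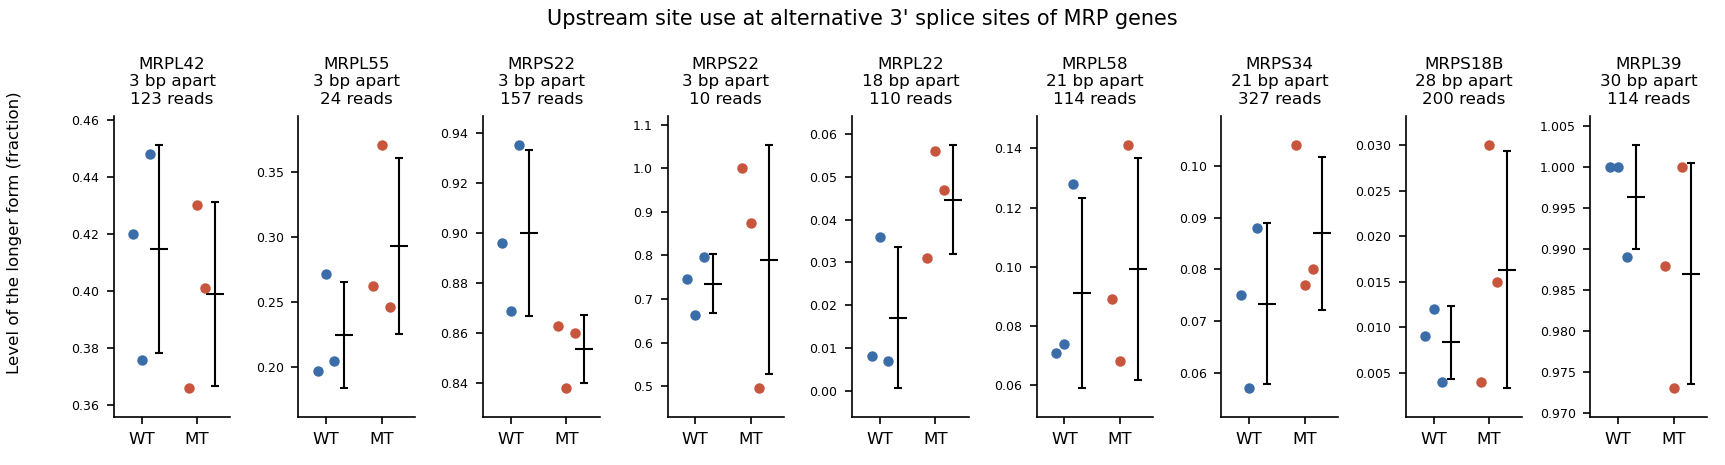
Level of the longer form (upstream 3′ site, fraction, each panel with its own y range) in each WT (blue) and MT (red) library, with the mean ± SD of 3 libraries, for the MRP site pairs 3 bp and 10 to 30 bp apart. Groups overlap in all panels but that of MRPS22 with 157 reads.

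MRPS2, a small subunit protein with a bacterial homologue, had a 3′ site pair 145 bp apart with levels of 0.012, 0.009 and 0.013 in WT against 0.016, 0.029 and 0.015 in MT. The upstream site was higher in every MT library, by 0.0087 (interval −0.0035 to 0.0209). Its sites are given here as the other pair of 3′ sites at which the groups did not overlap.
MRPS2 upstream site, chr9:135501679-135501698, plus strand: aaaggtccctgtgcttccAG
MRPS2 downstream site, chr9:135501824-135501843, plus strand: gctcctcctccctgccgtAG

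MRPS15, a small subunit protein with a bacterial homologue, separated the genotypes at 2 exons with full inclusion in MT. The 76-bp exon (chr1:36462088-36462163) had 0.986, 0.99 and 0.982 in WT against 1 in each MT library. The 49-bp exon (chr1:36461264-36461312) had 0.983, 0.989 and 0.983 in WT against 1 in each MT library. Each of these levels under 1 rested on 1 exclusion read per library, beside 87 to 181 inclusion reads in WT, and the MT libraries had 0 such reads beside 64 to 162. The longer exon had the smallest unadjusted limma p of MRPS15, 0.0333, and the adjusted limma p was 0.856 for both exons. The unadjusted quasi-binomial p was 0.072 for the longer and 0.0729 for the shorter exon.

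MRPS6, a small subunit protein with a bacterial homologue, had a 74-bp exon (chr21:34102835-34102908) that was rarely used, with 0.005, 0 and 0.03 in WT against 0.122, 0.057 and 0.03 in MT. MT1 was highest and MT3 equal to WT3. The difference was 0.058 (interval −0.008 to 0.124), on 11, 5 and 4 inclusion reads in MT and 1, 0 and 3 in WT. MRPS36, whose product is now known as a subunit of the 2-oxoglutarate dehydrogenase complex, had 2 events with differences up to 0.0047.

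The 5 deepest MRP events with both forms present differed in how tightly they were bounded. MRPL37, a mitochondria-specific large subunit protein, had levels of 0.537, 0.558 and 0.571 in WT against 0.565, 0.581 and 0.549 in MT for a pair of neighbouring exons with 1303 reads on average. Its interval ran from −0.0201 to 0.0394, which leaves out a change of 0.1. MRPL33, a large subunit protein with a bacterial homologue, had 0.592, 0.529 and 0.602 in WT against 0.562, 0.611 and 0.482 in MT at its 107-bp exon (chr2:27774424-27774530). Groups overlapped widely, and the interval ran from −0.119 to 0.0738.

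At the 102-bp exon of MRPL9 the levels were 0.921, 0.819 and 0.91 against 0.866, 0.888 and 0.849, with an interval from −0.0908 to 0.0595. MRPL11, a core protein of the large subunit stalk base, had 0.897, 0.828 and 0.833 in WT against 0.807, 0.838 and 0.708 in MT at a 5′ site pair 78 bp apart. MT3 was lowest, the difference was −0.068 and the interval −0.167 to 0.0305. Without MT3 the difference was −0.0302. The neighbouring exons of MRPS15 gave 0.414, 0.462 and 0.423 against 0.378, 0.436 and 0.443.

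**Figure D5:**
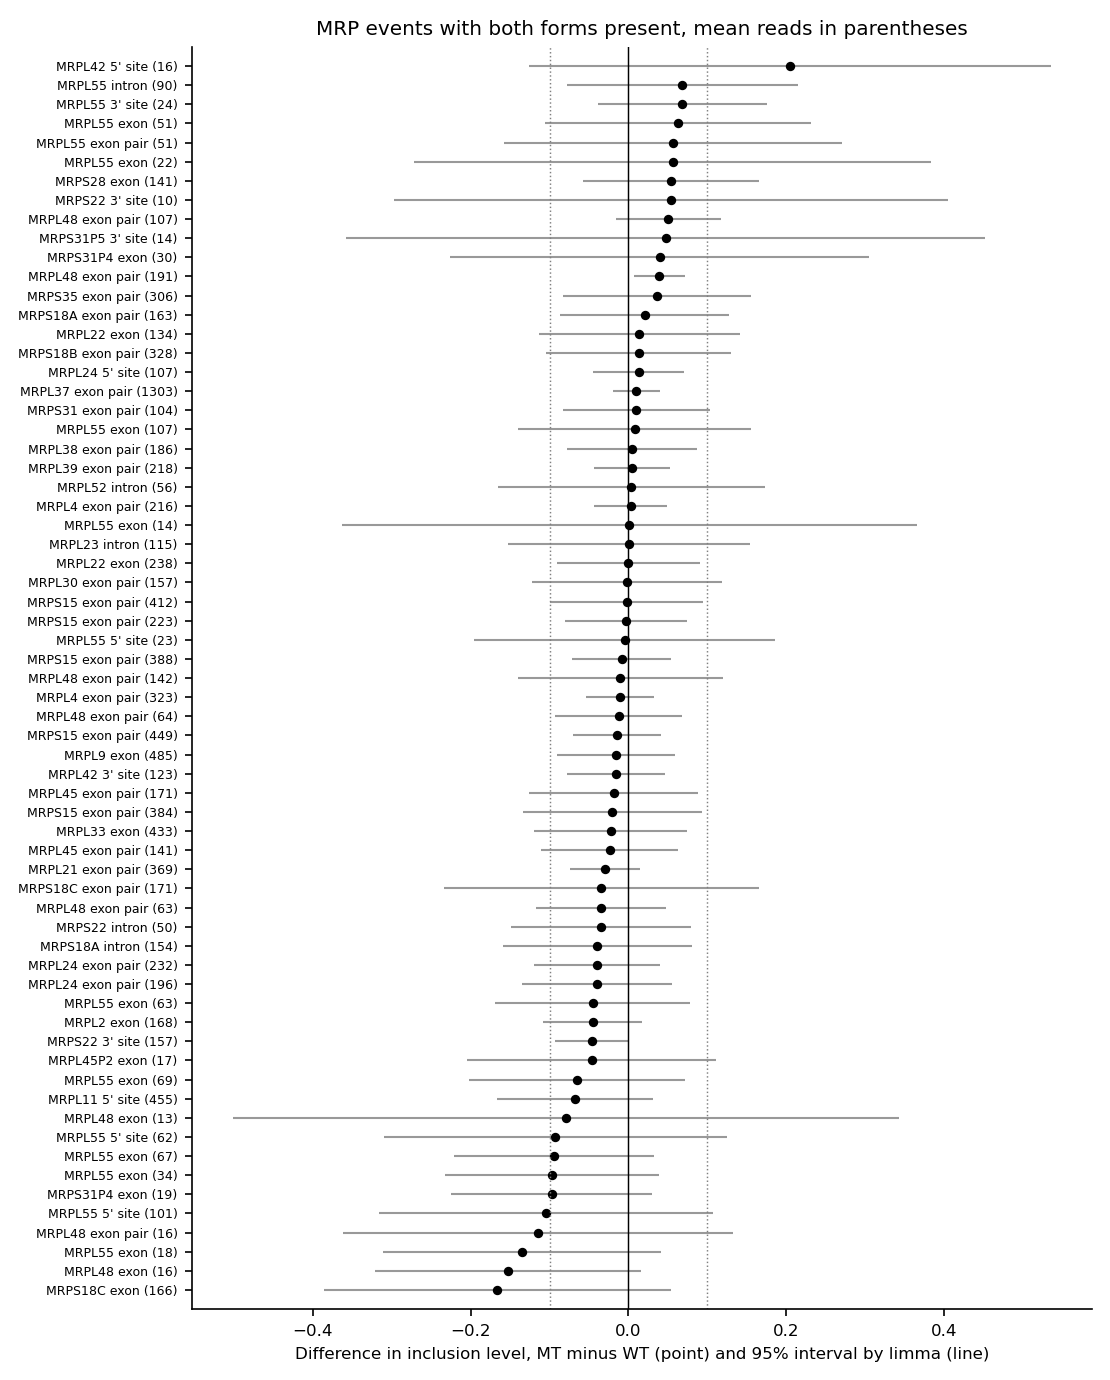
Difference in inclusion level, MT minus WT (points), with its 95% interval by limma (lines) for the 65 MRP events with a mean level from 0.1 to 0.9, sorted by difference, with the mean reads in parentheses. Dotted lines mark −0.1 and 0.1. Intervals of events with few reads are the widest, and those past 0.1 in either direction all reach across 0.

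Besides MRPS18C and MRPL42, differences above 0.1 were found in 4 events of MRPL48 and MRPL55. An exon of MRPL48 (125 bp, chr11:73817823-73817947) had 0.467, 0.538 and 0.667 in WT against 0.4, 0.333 and 0.481 in MT on 15.8 reads on average. As part of an exon pair the exon had 1, 0.866 and 0.84 against 0.928, 0.598 and 0.837. A 38-bp exon in the 5′ UTR of MRPL55 (chr1:228108437-228108474) had 0.329, 0.106 and 0.151 against 0.056, 0 and 0.125 on 18 reads. Groups overlapped in all 3 events, and each interval reached across 0.

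MRPL55, a mitochondria-specific large subunit protein, and MRPL42 also had an event at the coordinates of an MRP event in the study's Nalm-6 list. That list held 3 MRP events. The other, an alternative 3′ site of MRPL34, had no event at its coordinates in HEK293T cells. Directions in Nalm-6 cells were not compared. The MRPL55 event is a 5′ site pair 518 bp apart in the 5′ UTR (chr1:228108437-228108954). Its levels in HEK293T cells were 0.333, 0.314 and 0.528 in WT against 0.281, 0.172 and 0.408 in MT, on 101.2 reads on average. WT3 and MT3 were the highest of their groups, the groups overlapped, and the difference was −0.105 (interval −0.317 to 0.107). Without WT3 it was −0.0365, without MT2 −0.0472 and without MT3 −0.165. The MRPL42 event is the 5′ site pair described above. RNA-Seq of Nalm-6 cells was not analysed here.

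By event type, the 358 tested events were 241 skipped exons, 53 exon pairs, 26 alternative 5′ sites, 23 alternative 3′ sites and 15 retained introns. Call counts were 0 in each, against 0.0311% of all events. Median absolute differences ran from 0.006 for skipped exons to 0.0137 for alternative 3′ sites, below those of all events of each type (0.0107 for skipped exons and 0.019 for 3′ sites). Retained introns of 11 MRP genes, MRPL20, MRPL28 and MRPS7 among them, differed by −0.0397 to 0.0683. The genotypes were separated in 0 of these 15 events, against 5.46% of all events tested. A count of 0 among so few events cannot be told from that share. Among the exon pairs, 51 of 53 had both exons together in an annotated transcript, and 28 had them together in more transcripts than held 1 alone. For these pairs the level need not describe a choice between the exons.

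Other genes of mitochondrial translation were counted as well. A list of translation factors, assembly factors, tRNA synthetases and ribosomal proteins under other symbols had 585 tested events in 60 genes. Of these, 0 were called by limma or by the quasi-binomial test. The limma rule called 0.0311% of all events, a share at which 0 calls are likely in a set of this size. Unadjusted limma p was under 0.05 in 22 (3.76%, all events 4.47%), and 8 events (1.37%, all events 1.73%) had a difference above 0.1 without overlap, 4 in each direction.

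YBEY, an endoribonuclease of ribosome assembly, had 0.984, 0.966 and 0.895 in WT against 0.891, 0.81 and 0.838 in MT, a difference of −0.102 (adjusted limma p 0.753). MRRF, the ribosome recycling factor, had 0.985, 1 and 1 against 0.961, 0.972 and 0.939 at an alternative 3′ site. NOA1, a GTPase of small subunit assembly, had 0.989, 1 and 1 against 0.986, 0.969 and 0.965. The groups did not overlap in any of the YBEY, MRRF and NOA1 events, and none passed the adjusted threshold.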

How the data were processed

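RNA-Seq of HEK293T cells (KAPA stranded kit) was processed by the authors, per the labels with STAR and StringTie on GRCh38, and splice events were tested with the rMATS model. The deposited event table gives the inclusion level of each library as a fraction from 0 to 1, and mean junction reads per genotype as a signal computed by the authors over all MT values they list. The p-value, FDR and difference columns hold the authors' own comparison and were not used, nor were 3 listed MT values per event that have no column. MT columns equal list positions 1, 2 and 6. Read counts per library came from the same lists; the last MT count had lost digits in long lists and was recomputed from the deposited mean, kept only where it returned the deposited level within 0.0015. R-loop peak lists of the series were not used here.

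Events with 10 or more mean reads were tested with limma 3.58.1 in R 4.3.3 after an arcsine square-root transform, with the variance trended on reads and Benjamini-Hochberg adjustment over all events. The rMATS model itself was not refitted, because counts of some libraries were incomplete. Intervals are those of limma on the untransformed level, unadjusted for the number of events. Small shares rest on few reads, so they carry counting error. The scripts were tested on simulated data with changes larger than any difference found in MRP genes. That run does not show how well smaller changes are detected. Alternatives were a quasi-binomial test on counts, logit levels, no variance trend, read minimums of 20 and none, keeping events of 1 level, a difference above 0.2 and leaving out each library.

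Members and lists were chosen with earlier results of these data known. Named events were the 12 of smallest p, the 11 without overlap on at least 20 reads, the 5 deepest at a level from 0.1 to 0.9, events at coordinates of the study's Nalm-6 list and the 5 of smallest p in the translation list, of which some are not reported here. Events over 0.1 and site pairs at 3 or 10 to 30 bp were added after values were seen. Annotation was GENCODE release 44, and sequences were read from GRCh38.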

Additional observations from a re-analysis of the deposited data

How the results depend on the processing

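The count of MRP events called was 0 under every alternative run, as was that of the translation list. At most 37 events of all genes were called under any alternative. A count of 0 in sets of this size thus says little on dependence on the processing. Over all events the count of 26 became 0 with logit levels, 0 without a variance trend and 0 with the untransformed level, an alternative chosen after seeing the data, and ranged from 3 to 13 with 1 library left out, whichever it was. The count of MRP events without overlap and with a difference above 0.1 went from 0 to 3 without a read minimum (0.765%, all events 1.96%), and ranged from 1 to 8 with 1 library left out, 8 being the value without the MT3 column (2.39%, all events 3.49%). With any other library left out the MRP share was at most 1.42%, against at least 3.06% of all events. Of 337 values of named MRP events under alternatives, 333 kept their direction and stayed outside the combined call rule and 4 reversed, each with 1 library left out. The 102-bp exon of MRPL9 was at 0.0032 without WT replicate 1 (range −0.0478 to 0.0032). The MRPS15 exon pair was at 5e-04 without WT replicate 2 and 0.0065 without the MT1 column (range −0.026 to 0.0065). MRPL33 was at 0.0122 without the MT3 column (range −0.0523 to 0.0122). The cause was not tested. The lowest adjusted p of a named event under any alternative was 0.0357, for the 49-bp exon of MRPS15 when events of 1 level were kept, which is under 0.05 with a difference of 0.015, and its alternatives ran up to 0.894. No paired analysis was possible because the MT columns carry no settled replicate number. With 3 libraries a group and interval half-widths of up to 0.12 at the 90th percentile, changes of moderate size in shallow events were not detectable. Such changes could also be missed in deeper events. Of the 26 calls over all events, 24 had a difference above 0.2. The MRPL11 event averaged 455 reads, and its interval still ran from −0.167 to 0.0305.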

Other observations

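A few events carried MRP symbols with further letters, MRPL45P2, MRPS31P4 and MRPS31P5, which mark copies of MRPL45 and MRPS31. They accounted for 11 events, 7 of them tested, and reads may be shared with the parent genes, so their levels are uncertain. An exon of MRPS31P4 had 0.4, 0.375 and 0.231 in WT against 0.25, 0.25 and 0.214 in MT, and an exon of MRPL45P2 had 0.077, 0.077 and 0.28 against 0.103, 0.1 and 0.091. Groups overlapped in both.

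Within the translation list, MTRF1L, a mitochondrial release factor of the termination step, had 3 of the 8 events with a difference above 0.1 and no overlap. Inclusion of 1 exon was 0.612, 0.703 and 0.654 in WT against 0.789, 0.759 and 0.789 in MT, on 64.1 reads on average. A further exon event had 0.447, 0.5 and 0.517 against 0.7, 0.548 and 0.686, and an exon pair 0.431, 0.356 and 0.449 against 0.286, 0.293 and 0.326. These events share junction reads, the adjusted limma p was 0.856 for each, and they were picked out after their values were seen.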
